A study of Mus musculus with 138 samples.

Results

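Bulk RNA sequencing compared the frontal osteogenic front (OF) with the parietal OF of the coronal suture in wild-type C57BL/6J mouse embryos at E18.5, shortly before birth. The members were 10 libraries, 5 of the frontal OF and 5 of the parietal OF, out of 138 samples in the whole series and 100 first libraries of laser-captured regions. They were picked out by their labels (coronal suture, E18.5, frontal or parietal OF, first library of each embryo), and the same embryos gave 5 libraries of the suture mesenchyme (SM) that lies between the fronts. No embryo was treated or carried a mutation. Each region was cut out of tissue sections with a laser, and its RNA was amplified with the Ovation RNA-Seq System V2 before tagmentation with Nextera XT, so that every library mixes all cells within the cut. The label of the litter was shared by the regions of an embryo. It began alike for embryos 1 and 2 and otherwise for embryos 3 to 5, so that the data hold 5 embryos under 2 starts of the litter label.

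The bones on either side of the coronal suture differ in origin. The frontal bone comes from cranial neural crest and the parietal bone from paraxial head mesoderm. The study describes the mesenchyme between the bones as of mesoderm too. It keeps the edges of both bones apart while they grow over each other. At an OF, mesenchymal cells divide, switch on Runx2 and then Sp7 (osterix), the transcription factors of the osteoblast lineage, and lay down a matrix of type I collagen that later mineralizes. Fusion of this suture in infancy is a common form of craniosynostosis, and transcription factors such as Twist1, Msx2 and Alx4 and the FGF, hedgehog and ephrin pathways have known roles in it.

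Total counts were 20713756 to 28330463 in the frontal OF and 22442171 to 29099736 in the parietal OF, the mitochondrial share was 21.5% to 25.3% and 21.5% to 27.5% (higher in the parietal OF of 4 of 5 embryos), and the 10 most abundant genes of a library took 27.9% to 34.2% and 31.1% to 36% (higher in the parietal OF of 5 of 5). Detected genes numbered 21273 to 24819 in the frontal and 21519 to 24017 in the parietal OF, with more in the frontal OF of each embryo but embryo 2. The part of these values in the differences was not tested. All 15 libraries carried transcripts of the Y chromosome (Kdm5d at 57.6 CPM or more) and little Xist (2.02 CPM at most), so that sex did not separate the fronts. Of the 12 genes fixed as a check of bone against mesenchyme, 11 were tested and all 11 were higher in the average of both OFs than in the SM by edgeR's quasi-likelihood test (11.3% of all genes differed, 6.2% higher and 5.15% lower). The frontal OF of embryo 2 stood apart. On the first principal component of log2 CPM (24% of the variance over the 15 libraries) it lay at 65.7, among the parietal OFs (30.9 to 101.5), while the other 4 frontal OFs lay between -36.0 and -11.9. Both fronts of embryo 2 were the highest of their groups in summed early osteoblast genes. The counts below were therefore also taken without embryo 2.

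Of 19084 genes tested, 984 (5.16%) differed between the fronts at an adjusted p under 0.05. The frontal OF was higher for 630 genes (3.3%) and the parietal OF for 354 (1.85%). All fold changes are on the log2 scale, positive where the frontal OF is higher, with the standard error after ±, and adjusted p-values come from edgeR's quasi-likelihood test with the embryo as a block and Benjamini-Hochberg adjustment over all genes tested. The genes higher in the frontal OF had lower levels and larger differences than those higher in the parietal OF. Their median log2 fold change was 1.51 at a median of 21.0 CPM (read counts scaled by library size and TMM factor) in the higher front, against -0.72 at a median of 115.5 CPM for the genes higher in the parietal OF. Of the 630 and the 354 genes, 447 and 82 (2.34% and 0.43% of all genes, 2.77% together) differed at least 2-fold, 591 and 349 had the same sign in all 5 embryos, and 408 and 144 had groups that did not overlap (3.32% and 1.66% of all genes did so in each direction). The mean of the SM lay above that of the parietal OF for 626 of the 630 genes higher in the frontal OF and for 3 of the 354 genes higher in the parietal OF (53.8% of all genes tested). These counts share the parietal libraries with the calls and are a description. Against the SM, 571 genes (2.99%) differed for the frontal OF, 2.17% higher and 0.823% lower, and 3069 (16.1%) for the parietal OF, 8.54% higher and 7.54% lower. These comparisons share the SM libraries. Without embryo 2 the counts were 767 and 687, with no replicate block 535 and 204, and with scaling to total counts in place of TMM 971 and 164, so that the split between the directions depended on these choices.

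Transcription factors of neural crest and skull patterning differed in both directions. Of the 79 genes of this list 54 were tested, of which 13 were higher in the frontal OF (24.1%, against 3.3% of all genes), 6 were higher in the parietal OF (11.1%, against 1.85%) and 35 did not pass. The median log2 fold change of the 54 was 0.16, against 0.02 over all genes tested. Under total counts without TMM the numbers were 17 and 4, without the block 14 and 3, without embryo 2 16 and 6, and without any one of the other embryos 11 to 12 and 2.

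The gene of this list with the greatest fold change was Tfap2b (chr1:19208914-19238576, mm10, + strand), which encodes an AP-2 factor of neural crest and face. In embryos 1 to 5 the frontal OF held 6.22, 2.18, 1.81, 2.14 and 2.51 CPM, while all 5 parietal OFs were at 0. The frontal OF was therefore at least 114-fold higher, taking 3 counts over the 5 parietal libraries as the floor (adjusted p = 0.00201). In the SM it ranged from 0.09101 to 4.47 CPM, with embryo 3 far above the others. Its relative Tfap2a did not pass the filter on low counts. Foxc1, a forkhead factor needed for the skull vault and the meninges, held 17.8, 17.05, 17.1, 18.8 and 14.3 CPM in the frontal OF and 3.24, 3.703, 3.11, 4.59 and 6.101 CPM in the parietal OF (log2 fold change 2.06 ± 0.28, adjusted p = 0.000199). The 2 groups were well apart in every embryo. Foxc2, its close relative, was low throughout, at 0.929 to 4.71 CPM in the frontal and 0.188 to 1.35 CPM in the parietal OF (log2 fold change 2.46 ± 0.68, adjusted p = 0.0415). Sox10, a factor of neural crest and Schwann cells, was at 1.26 to 5.27 CPM in the frontal OF, and among the parietal OFs only that of embryo 3 had reads, at 0.320 CPM (log2 fold change 6.31 ± 1.15, adjusted p = 0.00252). It was also the 1 called gene of 11 tested Schwann cell and nerve markers, whose summed level overlapped between the fronts (31.2 to 56.4 CPM in the frontal and 28.6 to 58.5 CPM in the parietal OF). The median log2 fold change of the 11 was 2.25, 6 were higher and 1 lower in the frontal OF at an unadjusted p under 0.05, and 3 were called higher without the block. Of all 19084 genes, 1773 were higher and 1270 lower at that unadjusted p. The part of these cells in its value was not tested. In bulk samples, fewer cells of a type and less RNA per cell cannot be told apart.

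Other factors of the list were also higher in the frontal OF. Alx1, which patterns the upper face, held 42.3, 41.5, 44.6, 61.3 and 43.4 CPM in the frontal OF and 22.3, 20.8, 20.1, 18.2 and 27.8 CPM in the parietal OF (log2 fold change 1.09 ± 0.17, adjusted p = 0.000555), so that the groups did not overlap. Six2, a factor of mesenchymal progenitors, held 97.9, 67.1, 88.4, 85.5 and 60.8 CPM in the frontal OF and 74.02, 27.3, 32.6, 47.6 and 42.3 CPM in the parietal OF (log2 fold change 0.88 ± 0.16, adjusted p = 0.00245). Here the groups overlapped, because the parietal OF of embryo 1 was higher than the frontal OFs of embryos 2 and 5, but the frontal OF was higher within each embryo. Msx1, a homeobox factor of the skull vault, lay at 10.8 to 13.2 CPM in the frontal and 2.098 to 4.71 CPM in the parietal OF (log2 fold change 1.75 ± 0.29, adjusted p = 0.00128). Foxp2 (1.497 ± 0.17), Ets1 (1.19 ± 0.21), Eya1 (1.08 ± 0.23) and Sim2 (4.54 ± 0.64) also passed, with adjusted p-values from 2.59e-05 to 0.00795. The mean of the SM exceeded that of the frontal OF for Sim2, Foxp2, Ets1, Alx1, Eya1 and Six2.

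**Figure D1:**
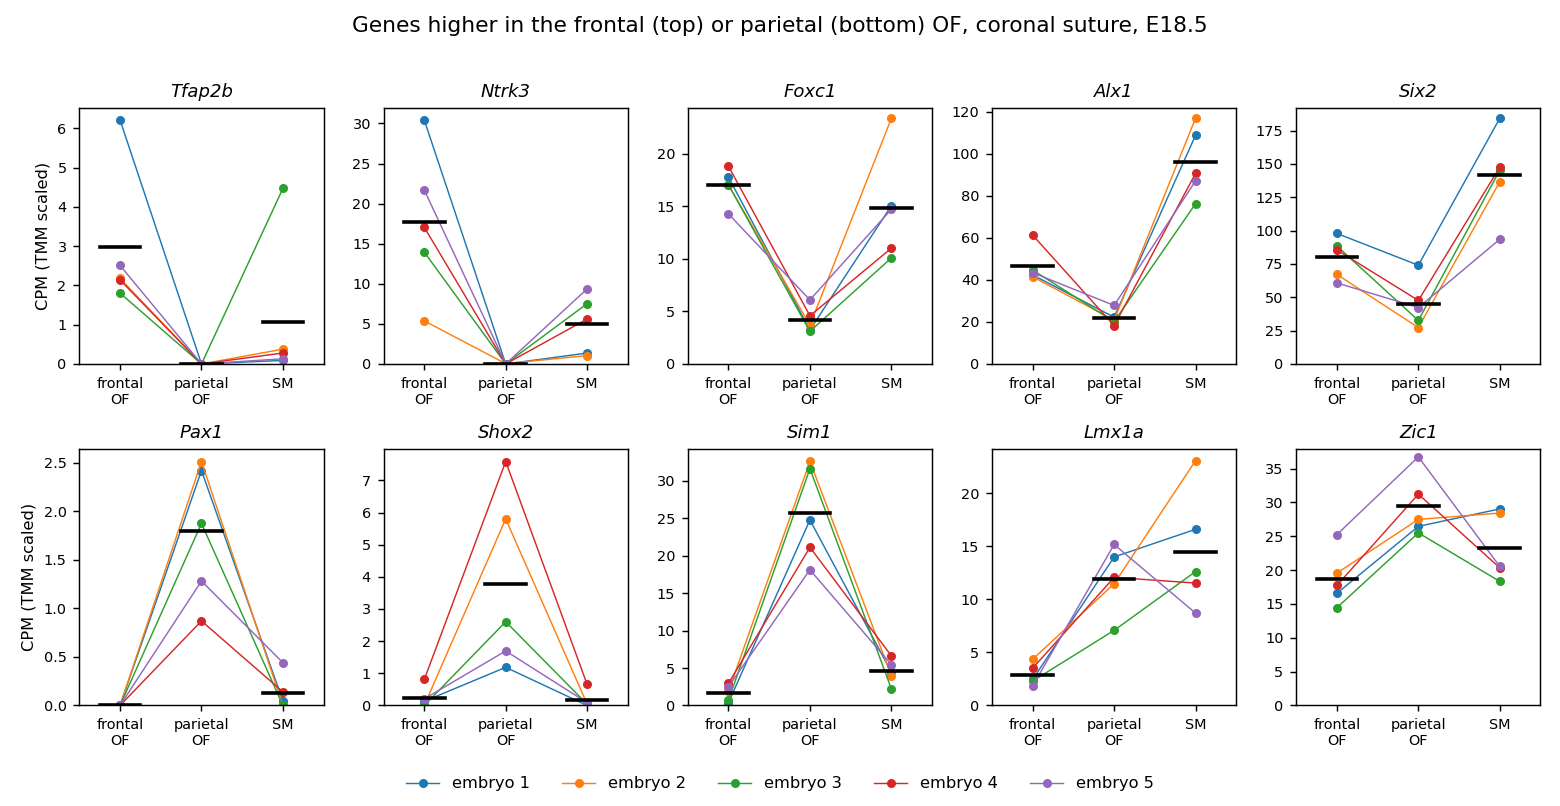
Levels (CPM, TMM scaled) of 10 genes in the frontal OF, parietal OF and SM of the coronal suture at E18.5, with 1 point and line per embryo and the mean as a black bar. Tfap2b, Ntrk3, Foxc1, Alx1 and Six2 (top) were higher in the frontal OF and Pax1, Shox2, Sim1, Lmx1a and Zic1 (bottom) in the parietal OF, and Alx1, Six2 and Lmx1a had their highest mean in the SM.

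Several factors with known roles in this suture were not called. Twist1, whose partial loss causes coronal synostosis, held 23.5 to 43.3 CPM in the frontal and 26.5 to 34.3 CPM in the parietal OF (log2 fold change 0.04 ± 0.21, adjusted p = 0.968). Alx4 (0.09 ± 0.14) and Msx2 (0.63 ± 0.22, adjusted p = 0.131) did not pass either, and neither did the ephrin Efna4 (0.39 ± 0.53). En1, a homeobox factor of the developing skull, was at 4.47 to 11.03 CPM and 6.99 to 11.3 CPM (log2 fold change -0.18 ± 0.32, adjusted p = 0.867).

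The 250 bases before the RefSeq start of 2 of these genes are shown, Tfap2b because it had the greatest fold change of the list and Foxc1 because its levels were apart in every embryo and its window holds a match to the AP-2 motif. The sequences are those of RefSeq on GRCm38.p6, both on the plus strand, and capitals mark the match to GCCNNNGGC, which reads the same on both strands.
Tfap2b, chr1:19211804-19212053: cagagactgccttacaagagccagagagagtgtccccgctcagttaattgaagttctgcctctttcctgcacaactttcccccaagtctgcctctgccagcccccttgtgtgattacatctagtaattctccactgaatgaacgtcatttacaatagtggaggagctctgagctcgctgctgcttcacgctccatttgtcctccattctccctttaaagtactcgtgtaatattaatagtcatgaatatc
Foxc1, chr13:31806396-31806645: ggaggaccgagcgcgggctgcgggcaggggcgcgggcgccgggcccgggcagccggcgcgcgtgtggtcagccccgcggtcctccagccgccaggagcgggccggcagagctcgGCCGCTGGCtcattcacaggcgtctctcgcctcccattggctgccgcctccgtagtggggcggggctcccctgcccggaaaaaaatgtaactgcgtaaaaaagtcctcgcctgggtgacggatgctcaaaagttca
The Foxc1 window had a GC content of 70.8% and the Tfap2b window of 46.4%, with no match in the latter. Such matches occurred in 19.9% of the 11622 promoters of tested genes, in 19.2% of 428 promoters of genes higher in the frontal OF and in 20.9% of 258 promoters of genes higher in the parietal OF. The forkhead letters GTAAACA were found in 2.08%, 1.87% and 1.16% and the homeodomain letters TAATTA in 2.34%, 2.57% and 1.16% of the same promoters, searched on both strands.

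Outside this list, a leading gene of the frontal side was Ntrk3 (chr7:78175959-78738012, - strand), which encodes TrkC, the receptor of neurotrophin 3. It held 30.4, 5.37, 13.9, 17.1 and 21.7 CPM in the frontal OFs of embryos 1 to 5, and the 5 parietal libraries together held 1 read pair, in embryo 2 (0.0411 CPM). The ratio of the fronts was 2030, with a 95% counting interval of 364 to 80221 (adjusted p = 1.06e-06). The mean of the SM lay between those of the fronts (range 1.05 to 9.37 CPM). At E16.5 Ntrk3 lay at 0 to 45.3 CPM in the coronal frontal OFs and at 0 to 1.41 CPM in the parietal ones. At other sutures of E18.5 embryos the parietal OFs held 0 to 7.27 CPM (sagittal) and 0 to 0.541 CPM (lambdoid). The frontal OF of the frontal suture held 1.27 to 9.97 CPM. Adra1a, an adrenergic receptor of smooth muscle, was at least 182-fold higher (0.632 to 9.15 CPM against 0 in all parietal OFs) and the protocadherin Fat2 at least 149-fold higher (0.242 to 7.88 CPM against 0). Tmem215, Gm15520, Upk1b, the endothelial adhesion molecule Selp and the membrane protein Mal were also at 0 in every parietal OF of these first libraries. Their lower bounds were 77.8-fold, 59.7-fold, 55.9-fold, 39.4-fold and 39.4-fold. Of the exonic bases of Selp, 14.1% are shared with genes on the other strand, whose reads the unstranded counts cannot separate there. Tox2 and Igsf11 had 1 read pair each in the parietal OF, which gave ratios of 302 (53.8 to 11973) and 189 (33.5 to 7498). Bmx, a kinase of arterial endothelium, had 3 read pairs there and a ratio of 150.4 (51.2 to 732). In all, 17 of the 630 genes had no read in any parietal OF and 2 of the 354 none in any frontal OF. The same share over all genes tested was not counted, and more genes were detected in the frontal OF of each embryo but embryo 2. These counting intervals and floors cover counting error in the first libraries only, and the second libraries given further on did not keep to all of them.

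A leading gene of the parietal side was Sim1 (chr10:50894754-50989152, + strand), a bHLH-PAS transcription factor known from the hypothalamus and somites. In embryos 1 to 5 the parietal OF held 24.8, 32.6, 31.6, 21.1 and 18.1 CPM and the frontal OF 0.388, 1.899, 0.722, 2.95 and 2.51 CPM (log2 fold change -4.14 ± 0.45, adjusted p = 2.12e-05). The lowest parietal value was several times the highest frontal one, and the SM lay at 2.22 to 6.64 CPM. Its paralogue Sim2 went the other way, at 8.04 to 10.9 CPM in the frontal and 0 to 1.21 CPM in the parietal OF (log2 fold change 4.54 ± 0.64, adjusted p = 0.000289). Pax1, a paired-box factor of the sclerotome, held 2.42, 2.51, 1.87, 0.8697 and 1.28 CPM in the parietal OFs and was at 0 in every frontal OF, which put the parietal OF at least 71.2-fold higher in these first libraries (adjusted p = 0.0136). The antisense transcript Emx2os was also at 0 in every frontal OF and at 1.82, 0.0823, 3.02, 2.42 and 3.05 CPM in the parietal OFs, at least 82.3-fold higher (adjusted p = 0.00892). Of its exonic bases 5.3% are shared with Emx2, the homeobox gene on the other strand, which had 2 read pairs in the frontal and 98 in the parietal OFs and was not called (adjusted p = 0.0757). Shox2, a homeobox factor of limb and jaw, held 1.19, 5.802, 2.604, 7.59 and 1.69 CPM in the parietal and 0.1295, 0, 0, 0.808 and 0.206 CPM in the frontal OF (log2 fold change -4.68 ± 1.08, adjusted p = 0.0148). Without the block its adjusted p was 0.0564. The transcript BC030500 had 1 read pair in the frontal OF, and its frontal level was lower by a ratio of 190.0 (95% counting interval 33.7 to 7544). Of its exonic bases 18.7% are shared with another gene.

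The other patterning factors higher in the parietal OF differed less. Lmx1a, a LIM homeobox factor, held 14, 11.5, 7.08, 12.1 and 15.2 CPM in the parietal and 2.46, 4.36, 2.302, 3.52 and 1.85 CPM in the frontal OF (log2 fold change -2.09 ± 0.31, adjusted p = 0.000434), and 8.71 to 23.1 CPM in the SM. Tbx15, which shapes the skeleton through mesenchymal condensations, lay at 20.4 to 36.1 CPM in the parietal and 10.3 to 15.5 CPM in the frontal OF (log2 fold change -1.13 ± 0.28, adjusted p = 0.0236). For both genes the groups did not overlap. Zic1 was higher by less (log2 fold change -0.67 ± 0.19, adjusted p = 0.0445, 0.0695 without the block), and Zic4 did not pass (-1.01 ± 0.34, adjusted p = 0.108). The osteoblast factor Dlx5 (-0.57 ± 0.13) also passed. Among the leading genes of the parietal side outside this list were Tnmd, which encodes the tendon glycoprotein tenomodulin (11.2 to 18.9 against 1.58 to 3.84 CPM, -2.73 ± 0.43), the BMP antagonist Sostdc1 (-2.23 ± 0.56), Ptgs2 or cyclooxygenase 2 (-2.23 ± 0.47), Lrrn4cl (-2.19 ± 0.29), Mfsd4b1 (-3.99 ± 1.09) and Clec2g (-3.96 ± 0.97). Without the block Clec2g (0.0539) and Sostdc1 (0.0697) missed the threshold.

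Genes of the early osteoblast list were called mainly in the parietal OF. Of 22 early osteoblast genes tested, 11 were higher in the parietal OF (50%, against 1.85% of all genes), 1 in the frontal OF and 10 did not pass, with a median log2 fold change of -0.72. The genes higher in the parietal OF include Tnmd, the tendon gene named above. Of the 11 tested genes of the check of bone against mesenchyme 6 were higher in the parietal OF (median -0.74), namely Sp7, Alpl, Col1a1, Col1a2, Phex and Dmp1. These are the same calls as those of the early osteoblast list and of the osteocyte and mineralization list below, and add no further count. The summed level of the early osteoblast genes was 38460 to 82610 CPM in the frontal OF, 65470 to 118600 CPM in the parietal OF and 23100 to 33520 CPM in the SM. Without embryo 2, whose frontal OF held the 82610, the count was 15, without any one of the others 6 to 8, and without the block 6. Sp7 held 337, 492, 316, 341 and 307 CPM in the parietal and 196.3, 331, 201, 178 and 173 CPM in the frontal OF (log2 fold change -0.74 ± 0.14, adjusted p = 0.00393). The frontal OF of embryo 2 overlapped with the parietal OFs, yet within every embryo the parietal OF was higher. Type I collagen, the main protein of bone matrix, is built from 2 kinds of chain. The gene of one, Col1a1, lay at 22177 to 41408 CPM in the parietal and 12066 to 28150 CPM in the frontal OF (log2 fold change -0.74 ± 0.11, adjusted p = 0.000586) and Col1a2 at 23045 to 38951 and 14686 to 30122 CPM (log2 fold change -0.59 ± 0.09, adjusted p = 0.0007). Bmp3, an inhibitory BMP made by bone cells (-1.23 ± 0.31), Creb3l1, a factor of collagen secretion (-0.91 ± 0.16), Fkbp11 (-0.84 ± 0.19), the matrix protein gene Sparc (-0.58 ± 0.12) and the phosphatase gene Alpl (-0.57 ± 0.13) also passed. Without the block Alpl (0.179), Sparc (0.165), Col1a2 (0.106) and Fkbp11 (0.0882) missed the threshold.

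Ibsp, the gene of bone sialoprotein, was not called although its groups did not overlap. The parietal OF held 6935, 11141, 7532, 4485 and 5012 CPM and the frontal OF 2002, 4127, 2132, 1882 and 1888 CPM, with an SM level of 23.8 to 351 CPM, and the adjusted p was 0.325 (-1.54 ± 0.69) in the fit that includes the SM. It was called in 2 of 20 alternatives, limma-voom and the fit without the SM (-1.54 there), with the lowest adjusted p at 2.13e-06. Runx2 (-0.41 ± 0.12) was just above the threshold, at an adjusted p of 0.0532, and was called in 10 of 20 alternatives, among them the fit without embryo 2 (-0.52, adjusted p = 0.00533). The 1 gene of the list that was higher in the frontal OF was Mmp13, a collagenase of late osteoblasts, at 7.29, 7.19, 3.52, 15.3 and 10.6 CPM against 2.37, 4.28, 0, 0.8697 and 0.264 CPM in the parietal OF (log2 fold change 2.95 ± 0.70, adjusted p = 0.0166). Its groups overlapped, and it was called in 16 of 20 alternatives, with log2 fold changes from 1.11 to 4.76 over the 20.

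Osteocyte and mineralization genes that passed were also higher in the parietal OF. Of 18 tested, 7 were higher in the parietal OF (38.9%, against 1.85% of all genes), 0 in the frontal OF and 11 did not pass (median log2 fold change -0.53). Phex, a peptidase that governs phosphate and mineralization, held 63.7, 63.5, 49.4, 43.8 and 52.3 CPM in the parietal and 10.9, 23.3, 11.1, 19.5 and 11.3 CPM in the frontal OF (log2 fold change -1.90 ± 0.35, adjusted p = 0.00248), with every parietal library above every frontal one. Dmp1, a matrix protein of osteocytes, held 22.5, 32.8, 32.8, 62.9 and 51.3 CPM and 2.81, 7.27, 8.76, 16.6 and 23.4 CPM (log2 fold change -2.004 ± 0.46, adjusted p = 0.0153). Its groups overlapped by 1 library, the frontal OF of embryo 5. The Wnt inhibitor gene Dkk1 (-1.91 ± 0.47), Ostn or osteocrin (-1.67 ± 0.41), the matrix gene Omd (-1.04 ± 0.20), Pdpn (-0.91 ± 0.21) and Tmem119 (-0.59 ± 0.15) also passed. Without any one of embryos 1, 3, 4 and 5 the count was 2 to 4, and it was 3 with limma-voom. Without the block 3 of the 18 passed, and Dmp1 (0.123) was among those lost. Spp1, the gene of osteopontin, did not pass (-1.13 ± 0.40, adjusted p = 0.156) and ranged widely among the parietal OFs, from 24.1 to 183 CPM.

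Many genes of glycolysis were higher in the parietal OF as well, in a list that also holds targets of the response to low oxygen. Of 24 tested, 14 were higher there (58.3%, against 1.85% of all genes), 0 were higher in the frontal OF and 10 did not pass, with a median log2 fold change of -0.70. The count was 14 without embryo 2, 11 without embryo 1, 3 without embryo 3, 8 without embryo 4, 7 without embryo 5, 11 without the block and 10 under total counts without TMM. Ldha, the lactate dehydrogenase subunit of glycolytic cells, held 934, 1479, 1455, 1235 and 1263 CPM in the parietal and 471, 1098, 717, 751 and 769.8 CPM in the frontal OF (log2 fold change -0.76 ± 0.16, adjusted p = 0.00692). The glucose transporter gene Slc2a1 lay at 38.9 to 67.3 against 23.5 to 48.3 CPM (log2 fold change -0.78 ± 0.16, adjusted p = 0.0082). For both, the parietal OF was higher in each embryo, with the frontal OF of embryo 2 within the parietal range. The 14 genes held none of phosphofructokinase or phosphoglycerate mutase. Other steps from hexokinase to pyruvate kinase were among them. They were Hk2 (-0.75 ± 0.18), Gpi1 (-0.47 ± 0.12), Aldoa (-0.81 ± 0.16), Aldoc (-1.97 ± 0.50), Tpi1 (-0.88 ± 0.14), Gapdh (-0.70 ± 0.16), Pgk1 (-0.77 ± 0.17), Eno1 (-0.86 ± 0.13) and Pkm (-0.67 ± 0.15). The lactate transporter gene Slc16a3 (-1.16 ± 0.27), Pdk1, which slows entry into the mitochondrial cycle (-0.70 ± 0.18), and Ndrg1 (-0.57 ± 0.16) were the others. Vegfa, another target of the low-oxygen response, did not pass (-0.22 ± 0.20, adjusted p = 0.675), although its groups did not overlap. The other low-oxygen targets of the list that were tested, Bnip3 (-0.78), Ankrd37 (-0.74), Ddit4 (-0.19), Egln3 (0.01) and Car9 (1.20), did not pass either (adjusted p from 0.122 to 0.996). Endothelial markers moved the opposite way over the same libraries, with summed levels of 197.6 to 537.6 CPM in the frontal and 70.8 to 110.3 CPM in the parietal OF. Their part in the glycolysis result was not tested.

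**Figure D2:**
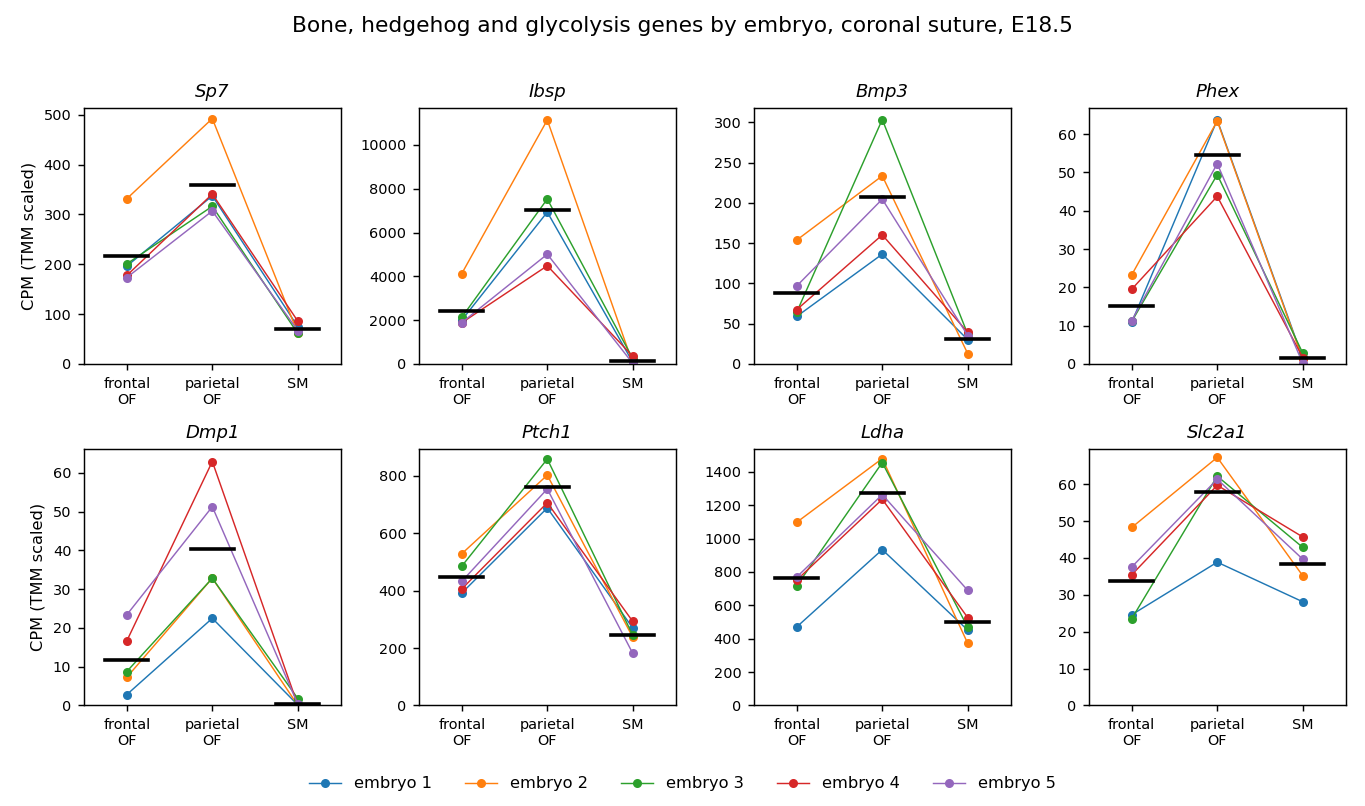
CPM (TMM scaled) of 8 bone, hedgehog and glycolysis genes in the frontal OF, parietal OF and SM at E18.5, with 1 point and line per embryo and the mean as a black bar. The line of every embryo rises from the frontal to the parietal OF in all 8 panels, and embryo 2 (orange) is the highest frontal OF for Sp7, Ibsp, Bmp3, Phex, Ptch1, Ldha and Slc2a1. Ibsp did not pass the test.

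No proliferation gene was called. None of the 30 cell cycle genes passed edgeR's test in either direction, and DESeq2 and limma-voom also called 0, while total counts without TMM gave 1 higher in the frontal OF and the fit without embryo 2 gave 1 higher in the parietal OF. At an unadjusted p under 0.05, 1 was higher in the frontal and 3 in the parietal OF, and the median log2 fold change was -0.06. Mki67, the gene of the Ki-67 antigen, lay at 843 to 1152 CPM in the frontal and 978 to 1157 CPM in the parietal OF (log2 fold change -0.16 ± 0.12, adjusted p = 0.583).

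Hedgehog signalling was measured by 15 genes, of which 2 were higher in each front (13.3%, against 3.3% of all genes in the frontal and 1.85% in the parietal direction). Ptch1, the receptor and a direct target of the pathway, held 687, 802, 858, 705 and 753 CPM in the parietal and 391, 528, 485, 406 and 432 CPM in the frontal OF (log2 fold change -0.77 ± 0.12, adjusted p = 0.000618). No frontal library reached the parietal range. Disp1, which releases the ligand, was also higher in the parietal OF (-0.76 ± 0.20, adjusted p = 0.0292). Hhip, the secreted decoy of hedgehog ligands, went the other way, with 253, 327, 372, 280.3 and 362 CPM in the frontal and 177, 199, 260.4, 222 and 252 CPM in the parietal OF (log2 fold change 0.51 ± 0.12, adjusted p = 0.0195, 0.0864 without the block). It was higher in the frontal OF of every embryo, and the mean of the SM (range 313 to 624 CPM) was above that of either front. The co-receptor gene Gas1 was higher in the frontal OF too (0.78 ± 0.19), and 19.9% of its exonic bases are shared with another gene. The ligand gene Ihh (2.84 to 11.7 CPM in the frontal and 9.71 to 23.2 CPM in the parietal OF, adjusted p = 0.14) and the target Gli1 (-0.54 ± 0.16, adjusted p = 0.0712) did not pass, although the 5 parietal OFs were above the 5 frontal OFs for Gli1. Ihh was called without embryo 2 (-1.55, adjusted p = 0.0272). For the list the numbers higher in the frontal and the parietal OF were 4 and 1 under total counts without TMM, 4 and 4 without embryo 2, and 0 to 1 and 1 without any one of the other embryos.

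Wnt signalling held 4 genes higher in the frontal and 2 higher in the parietal OF among 45 tested (8.89% and 4.44%, against 3.3% and 1.85% of all genes, median -0.23). Without embryo 2 the numbers were 3 and 5, and without any one of the other embryos 2 to 3 and 1 to 2. The secreted activator gene Rspo3 (1.66 ± 0.37), the receptor gene Fzd4 (1.34 ± 0.22) and the antagonists Dkk2 (1.05 ± 0.23) and Dkk3 (0.45 ± 0.11) were higher in the frontal OF. The R-spondin receptor gene Lgr6 (-2.14 ± 0.50) and the Wnt trap Wif1 (56.2 to 83.7 against 27.6 to 46.7 CPM, -1.06 ± 0.17) were higher in the parietal OF. Axin2, a target gene of the pathway, did not pass (log2 fold change -0.23 ± 0.20, adjusted p = 0.654). In the FGF pathway 2 of 22 genes were higher in the frontal (9.09%) and 1 in the parietal OF (4.55%), and 0 passed without embryo 1. The ligand Fgf10 held 12.1, 4.89, 13.5, 6.51 and 7.66 CPM in the frontal and 1.41, 2.55, 0.503, 1.26 and 3.92 CPM in the parietal OF (log2 fold change 2.29 ± 0.46, adjusted p = 0.00574), Fgf2 was higher in the frontal OF by less (0.51 ± 0.13, 0.0578 without the block), and the feedback inhibitor Spry2 was higher in the parietal OF (-1.15 ± 0.31), a call that was lost without any one of embryos 1 to 4. The receptor Fgfr2 (log2 fold change 0.01 ± 0.10, adjusted p = 0.978) and the ligand Fgf18 (-1.04 ± 0.58) did not pass.

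BMP and TGF-beta signalling differed in both directions, with 9 of 44 genes higher in the frontal and 4 in the parietal OF (20.5% and 9.09%, against 3.3% and 1.85% of all genes, median -0.10). Without embryo 2 the numbers were 9 and 8, and without any one of the other embryos 4 to 8 and 1 to 2. The genes on the frontal side were the antagonist Fst (3.68 ± 0.92), the latency proteins Ltbp2 (2.12 ± 0.30) and Ltbp3 (0.85 ± 0.12), the receptors Tgfbr2 (0.74 ± 0.13) and Tgfbr3 (0.92 ± 0.20), the ligands Tgfb3 (0.56 ± 0.13) and Bmp5 (1.32 ± 0.26), and Twsg1 and Fstl1, which bind ligands outside the cell (0.55 ± 0.13 and 0.51 ± 0.10). Of the exonic bases of Bmp5 46.7% are shared with other genes, so that its value is uncertain. The parietal side held the osteogenic ligands Bmp2 and Bmp8a. Bmp2 held 57.01, 46.2, 50.4, 44.3 and 47.9 CPM in the parietal and 17.9, 38.8, 23.1, 18.8 and 21.7 CPM in the frontal OF (log2 fold change -1.09 ± 0.25, adjusted p = 0.0164), and Bmp8a 15.1, 20.99, 17.5, 12.3 and 7.76 and 2.29, 6.91, 6.004, 5.01 and 3.87 CPM (log2 fold change -1.61 ± 0.40, adjusted p = 0.0239). Neither gene's groups overlapped. Bmp4 (-0.55 ± 0.43) and Tgfb2 (-0.24 ± 0.15) did not pass.

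Genes of the Notch and retinoic acid pathways were called on the frontal side only. Of 15 Notch genes 5 passed (33.3%, against 3.3% of all genes in this direction, median 0.92), and of 16 retinoic acid genes 4 passed (25%, median 0.88). Leaving out 1 embryo gave 3 to 6 and 1 to 4, and without the block the counts were 4 and 2. The 5 Notch genes were the receptors Notch3 (2.000 ± 0.28) and Notch4 (1.38 ± 0.37), the ligands Dll4 (1.92 ± 0.51) and Jag1 (0.92 ± 0.16), and the target Heyl, at 51.2, 16.04, 22.2, 38.8 and 35.98 CPM in the frontal and 1.09, 1.36, 3.84, 5.56 and 5.8 CPM in the parietal OF (log2 fold change 3.34 ± 0.42, adjusted p = 0.000104). Each of these is also known from the vessel wall, where Notch3 and Heyl mark mural cells and Dll4 and Notch4 endothelium, and the vessel markers given further on moved with them. Their part was not tested. Aldh1a2, which makes retinoic acid and marks the meninges, held 13.4, 0.485, 4.83, 12.4 and 11.98 CPM in the frontal and 0.182, 0, 0.3198, 0.338 and 0.678 CPM in the parietal OF (log2 fold change 4.88 ± 0.64, adjusted p = 0.000163), and the frontal OF of embryo 2 was the 1 library within the parietal range. The receptor gene Rarb (2.24 ± 0.54, 38.4% of exonic bases shared with other genes) and the reductase gene Dhrs3 (1.33 ± 0.36) also passed. Ephrins and Eph receptors were called at shares near those of all genes, with 1 of 19 in each direction (5.26%, against 3.3% and 1.85%). Efnb2 was higher in the frontal OF (0.94 ± 0.17) and Ephb2, which encodes one of its receptors, in the parietal OF at 155 to 247 against 89.7 to 178 CPM (log2 fold change -0.84 ± 0.12, adjusted p = 0.000319). Without embryo 2 the count on the frontal side was 3. Only 1 of the 30 Hox genes could be tested, and it did not pass.

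Matrix genes differed in both directions. Of 46 collagens and matrix proteins tested, 10 were higher in the frontal OF (21.7%, against 3.3% of all genes) and 5 in the parietal OF (10.9%, against 1.85%). Without embryo 2 the numbers were 10 and 12, without any one of the other embryos 6 to 8 and 4 to 5, without the block 9 and 3 and under total counts without TMM 14 and 4. The basement membrane chains Col4a1 (304 to 384 against 90.5 to 196.1 CPM, 1.31 ± 0.13), Col4a2 (1.24 ± 0.11), Col15a1 (1.11 ± 0.13) and Col18a1 (1.96 ± 0.34) were higher in the frontal OF. So were the loose connective tissue genes Col14a1 and Col3a1. Col14a1 held 119, 29, 73.4, 92.7 and 98.1 CPM in the frontal and 12.5, 1.11, 13.3, 24.8 and 7.16 CPM in the parietal OF (log2 fold change 3.00 ± 0.38, adjusted p = 0.000133), with no overlap, whereas Col3a1 differed by 0.43 ± 0.11. Eln (0.82 ± 0.16), Mmp2 (0.55 ± 0.10), Col16a1 (0.53 ± 0.12) and Fbn1 (0.38 ± 0.11, 20.1% of exonic bases shared with a gene on the other strand) completed the 10. The parietal side held the fibrillar chains Col24a1, Col5a1 and Col5a2 and the genes Prelp (-1.46 ± 0.25) and Timp1 (-0.93 ± 0.17). Col24a1, a collagen of forming bone, held 569, 727, 629, 452 and 448 CPM in the parietal and 192, 266, 262, 198.4 and 253 CPM in the frontal OF (log2 fold change -1.28 ± 0.19, adjusted p = 0.000563), so that the groups were far apart.

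**Figure D3:**
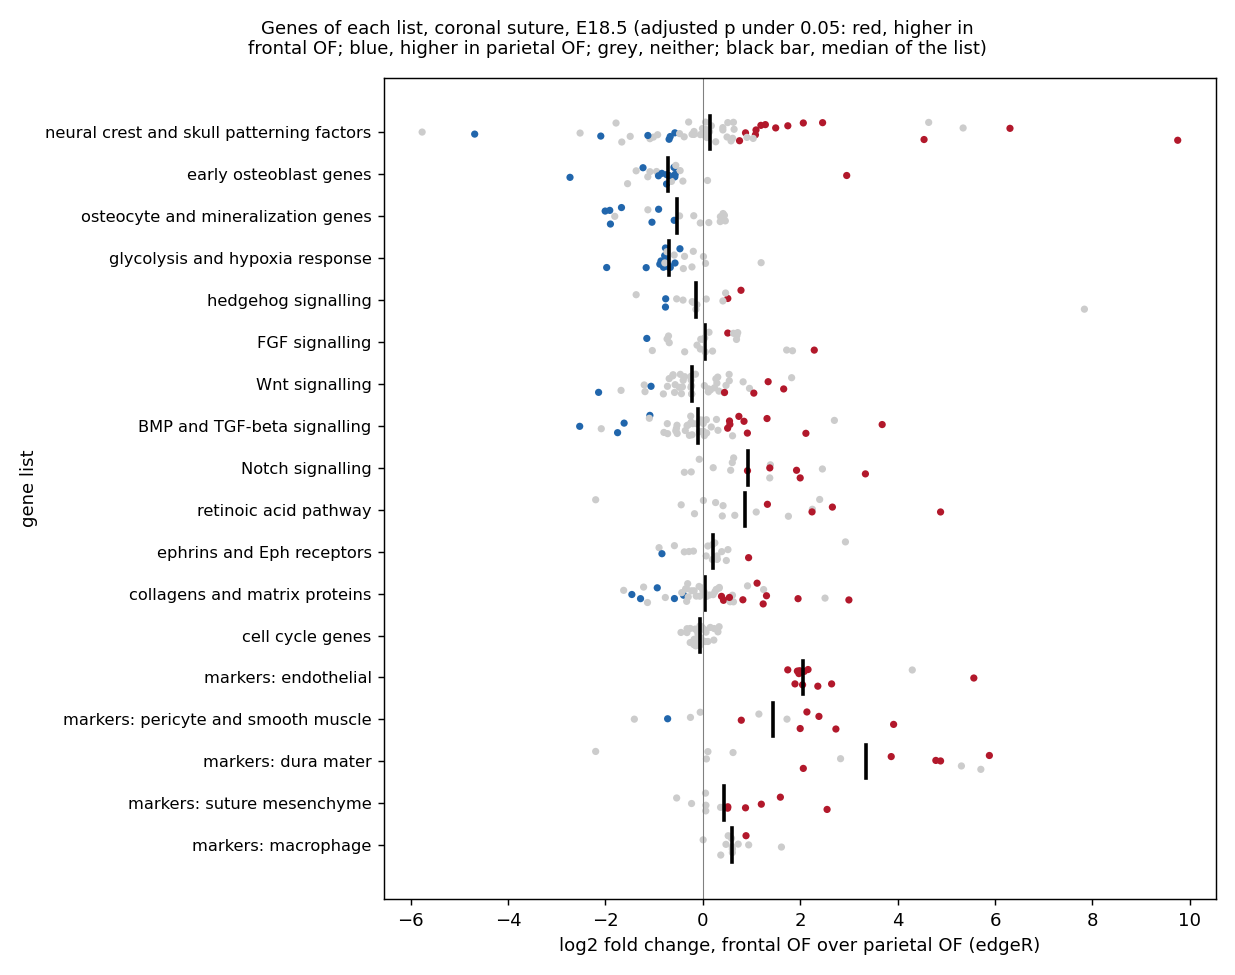
Log2 fold change (frontal over parietal OF, edgeR) of every tested gene of 18 lists, with genes higher in the frontal OF in red, genes higher in the parietal OF in blue, genes that did not pass in grey and the median of each list as a black bar. The medians of early osteoblast (-0.72), osteocyte (-0.53) and glycolysis genes (-0.70) lie below 0 and those of endothelial (2.07), pericyte (1.44) and dura mater markers (3.35) above it. A gene at 0 in all libraries of 1 front sits at a fitted value that depends on the prior count.

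Nearly all endothelial markers were higher in the frontal OF. Of 12 endothelial markers 11 were higher in the frontal OF (91.7%, against 3.3% of all genes) and 0 in the parietal OF, with a median log2 fold change of 2.07. The count was also 11 without embryo 2, without the block and under total counts without TMM, and it was 7 without embryo 1, 9 without embryo 3, 8 without embryo 4 and 6 without embryo 5. Their summed level was 197.6 to 537.6 CPM in the frontal OF, 70.8 to 110.3 CPM in the parietal OF and 274 to 405 CPM in the SM, so that the parietal OF held less than both neighbours. Pecam1, which encodes the adhesion molecule CD31, held 70.3, 38.4, 54.5, 88.01 and 78.8 CPM in the frontal and 12.6, 14.4, 14.9, 17.4 and 18.3 CPM in the parietal OF (log2 fold change 2.05 ± 0.16, adjusted p = 1.06e-06). Cdh5, the gene of VE-cadherin, held 146, 51.2, 99.5, 163 and 124 CPM and 38.95, 16.4, 29.7, 27.2 and 31.4 CPM (log2 fold change 1.99 ± 0.17, adjusted p = 1.39e-06), and Kdr, the receptor of VEGF, lay at 26.01 to 54.5 against 6.502 to 13.4 CPM (log2 fold change 1.97 ± 0.19, adjusted p = 6.94e-06). For all 3 genes the lowest frontal library, that of embryo 2, still exceeded every parietal library. Emcn (2.64 ± 0.31), Flt1 (2.08 ± 0.22), Esam (2.36 ± 0.33), Plvap (2.16 ± 0.50), Tie1 (1.94 ± 0.40), Tek (1.89 ± 0.37), Egfl7 (1.75 ± 0.42) and Vwf (5.56 ± 1.29) were the others, and Cldn5 did not pass (4.30, adjusted p = 0.124).

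Pericyte and smooth muscle markers were mixed. Of 12 tested, 6 were higher in the frontal OF (50%, against 3.3% of all genes), 1 in the parietal OF (8.33%, against 1.85%) and 5 did not pass, and the summed level was 794 to 1389 CPM in the frontal and 627 to 854 CPM in the parietal OF. Over all alternatives the counts were 2 to 6 and 0 to 2, and without the block they were 6 and 0. Rgs5, a marker of pericytes, held 606, 221, 181, 567 and 509.6 CPM in the frontal and 42.9, 37.4, 55.7, 100.01 and 64.03 CPM in the parietal OF (log2 fold change 2.73 ± 0.23, adjusted p = 1.48e-06), with no overlap, and Myh11, the myosin of smooth muscle, lay at 4.56 to 77.6 against 0.868 to 2.84 CPM (log2 fold change 3.92 ± 0.51, adjusted p = 0.000157). Abcc9 (2.14 ± 0.16), Kcnj8 (2.38 ± 0.41) and Pdgfrb (0.79 ± 0.13) also passed. The gene of the NG2 proteoglycan, Cspg4, was higher in the parietal OF (-0.72 ± 0.19), and the contractile genes Acta2 (-0.25) and Tagln (-0.05) did not pass.

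Of 12 dura mater markers 5 were higher in the frontal OF (41.7%, against 3.3% of all genes) and 0 in the parietal OF, with a median log2 fold change of 3.35 (3 to 6 called when 1 embryo was left out). Their summed level overlapped, at 110 to 265 CPM in the frontal and 90.4 to 140.9 CPM in the parietal OF, and was higher in the frontal OF of each embryo. The chemokine gene Cxcl12 held 77.1, 18.1, 29.1, 38.8 and 51.1 CPM in the frontal and 2.83, 2.39, 3.34, 4.06 and 1.28 CPM in the parietal OF (log2 fold change 3.87 ± 0.32, adjusted p = 1.39e-06). The prostaglandin synthase gene Ptgds (4.79 ± 1.14), Aldh1a2, Foxc1 and the tight junction gene Cldn11 were the others. Cldn11 had 3 read pairs in the parietal OF, which gave a ratio of 55.5 (18.7 to 272), and was at 0 in the frontal OF of embryo 2. Markers of the SM were higher in the frontal OF for 6 of 12 genes (50%, 4 without any one of embryos 1, 3, 4 and 5), among them Adamts8 (18.2 to 24.2 against 1.81 to 4.97 CPM, 2.55 ± 0.26), Cd34 (1.59 ± 0.19), Erg (1.20 ± 0.12) and Itgb5 (0.51 ± 0.13). The other 6 did not pass, and the median log2 fold change of the 12 was 0.44. Among those that did not pass, Gli1 and Axin2 had negative log2 fold changes, and for Gli1 every parietal library lay above every frontal one. The summed level of the SM markers was 3104 to 3651 CPM in the frontal OF, 2342 to 3081 CPM in the parietal OF and 4476 to 5036 CPM in the SM. No part of these tissues in the differences of the other gene groups was tested.

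Of other cell types at most 2 markers a list were called, beside 3.3% of all genes in the frontal direction. Of ectocranial mesenchyme markers 2 of 7 (28.6%) were higher in the frontal OF (Abcc9 and Fbn1, while Col8a1 at -1.62 ± 0.48 did not pass, adjusted p = 0.0961, and was higher in the parietal OF of 5 of 5 embryos), of hypodermis markers 1 of 10 (10%, Dpt, 2.21 ± 0.19), of chondrocyte markers 1 of 9 (11.1%, Acan, 0.99 ± 0.16), and of macrophage markers 1 of 12 (8.33%, C1qb, 0.89 ± 0.22). For the macrophage markers the median was 0.61, 6 of 12 were higher and 0 lower in the frontal OF at an unadjusted p under 0.05 (1773 and 1270 of all 19084 genes), and their sum was higher in the frontal OF of each embryo (168 to 225 CPM against 104 to 189.7 CPM). Summed ectocranial markers overlapped, at 667 to 1072 CPM in the frontal and 429 to 1233 CPM in the parietal OF. The median log2 fold change of the hypodermis markers was -0.21, with 1 higher and 1 lower at an unadjusted p under 0.05, while their summed level did not overlap, at 145.5 to 265 CPM in the frontal and 77.1 to 144.4 CPM in the parietal OF. Summed chondrocyte markers were higher in the parietal OF of each embryo, opposite to Acan, at 303 to 534 CPM against 232 to 430.0 CPM. The part of these cells in the other differences was not tested. Of 6 red cell genes the 2 haemoglobin genes Hbb-bs and Hba-a1 were higher in the frontal OF, and both missed the threshold without the block (0.419 and 0.214). Their close copies can share reads. None of 11 osteoclast, 6 mast cell, 3 skeletal muscle and 3 epidermis markers passed edgeR's test (0 and 2 of these 23 at an unadjusted p under 0.05 in the frontal and parietal direction, and by DESeq2 1 osteoclast and 1 mast cell marker higher in the parietal OF, against 1 and 2 without embryo 2 and 0 and 1 without the block), and no neutrophil marker reached the filter on low counts. Mast cell markers varied within a front, from 1.03 to 71.5 CPM in sum among the parietal OFs.

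The same pair of fronts was measured at E16.5 in 5 other embryos, and both ages were fitted together to test whether the difference changed with age. At E16.5 only 20 of 18558 genes (0.108%) were called, 12 higher in the frontal (0.0647%) and 8 in the parietal OF (0.0431%), against 258 genes (1.39%, 1.01% higher in the frontal and 0.383% in the parietal OF) at E18.5 in the same fit. At an unadjusted p under 0.05 the E16.5 counts were 1011 and 963. Of the 630 genes higher in the frontal OF at E18.5, 624 were tested in this fit. At E16.5, 10 of them were called in the same direction, 1 in the opposite direction, and 71.6% had the same sign (48.3% of all genes had it). Of the 354 genes higher in the parietal OF 4 were called in the same direction, 0 in the opposite one, and 79.9% had the same sign (51.7% of all genes). The levels that follow for E16.5 and other sutures were scaled over other sets of libraries than the levels above. E16.5 and the other sutures need not share a scale. On the scale used for E16.5 the values of the coronal OFs at E18.5 are somewhat lower than those above.

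The genes called at both ages included patterning factors. At E16.5 Tfap2b lay at 2.34 to 23.2 CPM in the frontal OF and again at 0 in all 5 parietal OFs (adjusted p = 0.00928). Sim1 was at 9.92 to 51.9 CPM in the parietal and 1.8 to 5.47 CPM in the frontal OF (-2.76 ± 0.51, adjusted p = 0.0145). Lmx1a (-4.44 ± 0.72) and Tnmd (-4.02 ± 0.73) were again higher in the parietal OF, and Foxp2 (1.05 ± 0.19) and Col14a1 (2.61 ± 0.51) again in the frontal OF. For none of these 6 did the difference between the ages pass (adjusted p from 0.611 to 1). Foxc1 (1.05 ± 0.32, adjusted p = 0.201), Alx1 (0.86 ± 0.31, 0.287), Six2 (0.49 ± 0.24, 0.459) and Shox2, which had no read in any frontal OF and 0 to 7.52 CPM in the parietal OFs, were not called at E16.5.

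The difference between the fronts changed between E16.5 and E18.5 for 14 genes (0.0754% of those tested), 13 of them toward the frontal OF (0.0701%) and 1 toward the parietal OF (0.00539%). The 13 were Pecam1 (2.66 ± 0.49, adjusted p = 0.0165), Cdh5 (2.22 ± 0.41, adjusted p = 0.0202), Cd34 (1.48 ± 0.29), the apelin receptor gene Aplnr (3.29), the low-oxygen factor Epas1 (2.58), the phosphatase gene Ptprb (2.39), Adgrf5 (2.56), Cav1 (1.98), Sparcl1 (1.67), the cytokine receptor gene Osmr (2.71), Ccn3 (2.69), Apbb2 (1.36) and Fbn1 (1.22). The exception was P4ha1, a collagen prolyl hydroxylase, which changed toward the parietal OF (-1.15). Adjusted p-values of the 14 ranged from 0.00487 to 0.0333. The count was 4 without the block and 0 to 16 when 1 replicate number was left out at a time, with 0 without replicate 5 (1074 genes at an unadjusted p under 0.05), 1 without replicate 1 and 4 without replicate 4.

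Of the 11 endothelial markers tested at both ages, 2 (Pecam1 and Cdh5) passed the test of the change with age. Toward the frontal OF 8 of the 11 had an unadjusted p under 0.05 (706 of all 18558 genes) and 0 toward the parietal OF, and the median of the change was 2.15. At E16.5 none of the 11 passed edgeR's test (2 and 1 at an unadjusted p under 0.05 in the frontal and parietal direction), and their median log2 fold change was 0.21. On the scale used for E16.5 their summed level was 154 to 343 CPM in the frontal and 105 to 412 CPM in the parietal OF at E16.5. At E18.5 it was 173 to 468 CPM against 62.4 to 96.6 CPM on that scale. The parietal range at E18.5 thus lay below every OF library at E16.5. Pecam1 alone lay at 18.9 to 42.7 CPM in the frontal and 17.8 to 59.5 CPM in the parietal OF at E16.5 (-0.62 ± 0.34). Glycolysis genes (median -0.22, 0 of 24 called by edgeR, 1 and 3 at an unadjusted p under 0.05) and early osteoblast genes (median -0.14, 1 of 22 called in the parietal OF, the tendon gene Tnmd) lay nearer to 0 at E16.5. The change with age was called by edgeR for 0 genes of both lists, with 4 and 6 of them at an unadjusted p under 0.05 toward the parietal OF, and the medians of the change were -0.40 and -0.50.

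**Figure D4:**
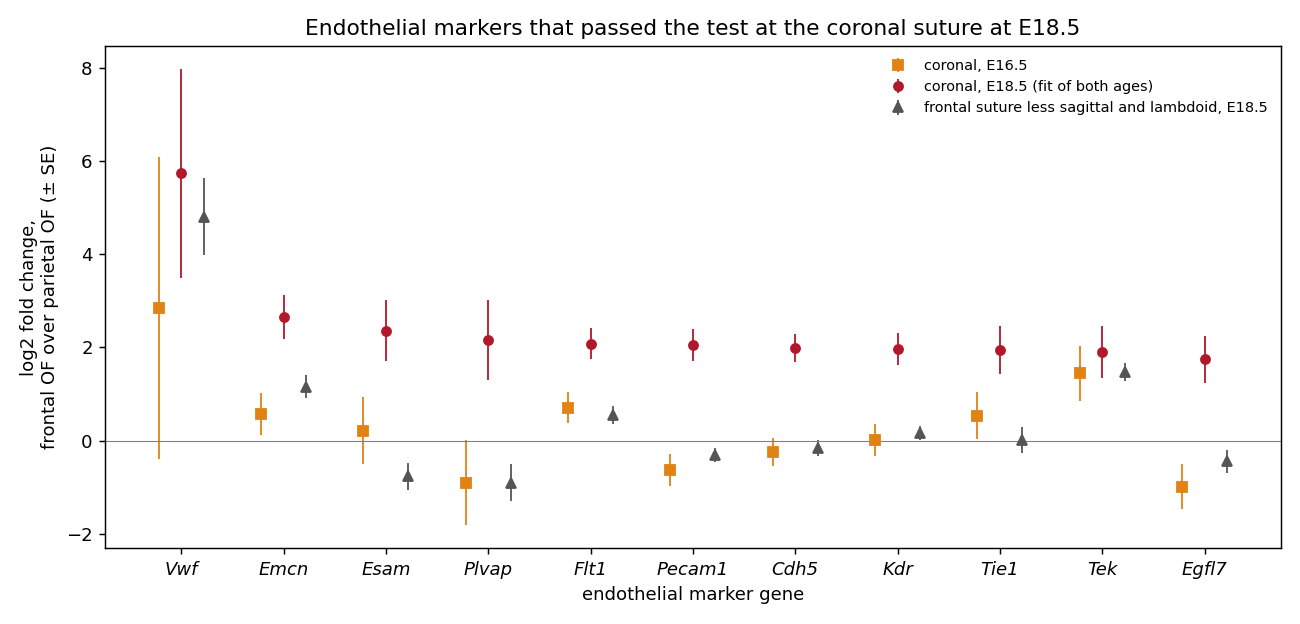
Log2 fold change (frontal over parietal OF, ± SE) of the 11 endothelial markers that passed at the coronal suture at E18.5, for the coronal suture at E16.5 (orange squares), at E18.5 (red circles) and for the frontal suture against the sagittal and lambdoid sutures at E18.5 (grey triangles). The red points lie at 1.74 or above, whereas the orange and grey points lie on both sides of 0, from -0.99 for Egfl7 at E16.5 to 4.804 for Vwf at the other sutures, where Vwf, Emcn, Flt1 and Tek were called higher in the frontal OF and Esam lower.

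At other sutures of E18.5 embryos the same bones meet different partners. The frontal OF of the frontal suture, where both bones are of neural crest, was compared with the parietal OFs of the sagittal and lambdoid sutures in libraries that are not among the 10, at lower depth. Here suture and bone cannot be told apart, nor can depth or the set of libraries. The totals were 7988898 to 11099432 for the frontal suture, 14359519 to 16871945 for the sagittal and 8706271 to 10439953 for the lambdoid. The labels name 4 sets of normalization controls without saying which sutures each belongs to. Their letters (C, IF, L and S) also stand in the titles of the coronal, frontal, lambdoid and sagittal libraries. Of the sex-linked check (Xist and 4 genes of the Y chromosome), 4 genes were tested in this comparison and 3 were higher in the frontal OF (median 0.79), and its summed level was 215.6 to 377.5 CPM in the frontal OF, 149 to 197.1 CPM in the sagittal and 166.2 to 194.5 CPM in the lambdoid parietal OF. Its part in the differences was not tested. The test called 7682 of 19493 genes (39.4%), 3928 (20.2%) higher in the frontal and 3754 (19.3%) in the parietal OFs. Of the 607 genes tested there that were higher in the frontal OF at the coronal suture, 341 (56.2%) were called in the same direction and 18 in the opposite one. Of the 352 genes higher in the parietal OF the numbers were 223 (63.4%) and 19. Against the lambdoid parietal OF alone the test called 3389 genes.

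Patterning factors of the frontal side were among those shared. Tfap2b lay at 30.3 to 69.1 CPM in the frontal OF of the frontal suture, at 0 to 0.346 CPM in the sagittal and at 0 in every lambdoid parietal OF (10.19 ± 0.43, adjusted p = 4.81e-11). Alx1 was at 28.8 to 52.5 CPM in the frontal OF against 2.26 to 6.23 and 0.313 to 1.803 CPM in the parietal OFs (4.18 ± 0.27, adjusted p = 1.27e-09), and Six2 at 34.7 to 63.4 CPM against 1.47 to 11.2 and 2.61 to 6.23 CPM (3.31 ± 0.28, adjusted p = 6.50e-08). The log2 differences of Alx1 and Six2 were thus larger than the 1.09 and 0.88 of the coronal suture, but no test compared the sutures. Foxc1 was again higher in the frontal OF (2.97 ± 0.28, adjusted p = 2.07e-07). Pax1 was again higher on the parietal side (-5.77 ± 0.40, adjusted p = 3.97e-09), at 7.83 to 12.3 and 10.95 to 16.4 CPM against 0 to 0.457 CPM in the frontal OF.

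Other genes of the parietal side were called in the opposite direction. Sim1 was at 2.46 to 7.01 CPM in the frontal OF of the frontal suture and at 0.208 to 2.43 and 0.659 to 2.89 CPM in the sagittal and lambdoid parietal OFs, so that it was called higher in the frontal OF there (1.84 ± 0.46, adjusted p = 0.00289). No parietal OF of those sutures came near the coronal parietal OF, whose lowest library held 18.1 CPM on the scale of the coronal libraries. Shox2 (4.51 ± 0.57, adjusted p = 4.60e-06), Emx2os (3.21 ± 0.46, adjusted p = 1.66e-05), Tbx15 (1.08 ± 0.24, adjusted p = 0.00168) and Prelp (1.67 ± 0.21, adjusted p = 3.36e-06) were likewise called in the opposite direction. For Tbx15 the frontal OF of the frontal suture (46.8 to 181 CPM) was above the sagittal parietal OF (23.1 to 32.7 CPM) and overlapped with the lambdoid one (39.5 to 66.7 CPM). Among the genes of the frontal side, Hhip (-0.65 ± 0.13), Ets1 (-0.52 ± 0.18) and Esam (-0.77 ± 0.30) were called the other way. Ets1 lay at 13.9 to 23.7 CPM in that frontal OF, at 11.4 to 20.6 CPM in the sagittal and at 35.3 to 64.9 CPM in the lambdoid parietal OF, so that the lambdoid libraries alone lay above the frontal ones. Of 12 endothelial markers 4 were higher in the frontal and 1 in the parietal OFs there (median -0.07), beside 20.2% and 19.3% of all genes, and their summed level of 243 to 391 CPM in the frontal OF overlapped with 215 to 343 CPM in the sagittal and 212 to 259 CPM in the lambdoid parietal OF. Glycolysis genes (18 of 24 higher in the parietal OFs, median -1.10) and early osteoblast genes (14 of 22, median -0.64) had negative medians there too, and 22 of 30 cell cycle genes were also higher in the parietal OFs (median -0.74).

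**Figure D5:**
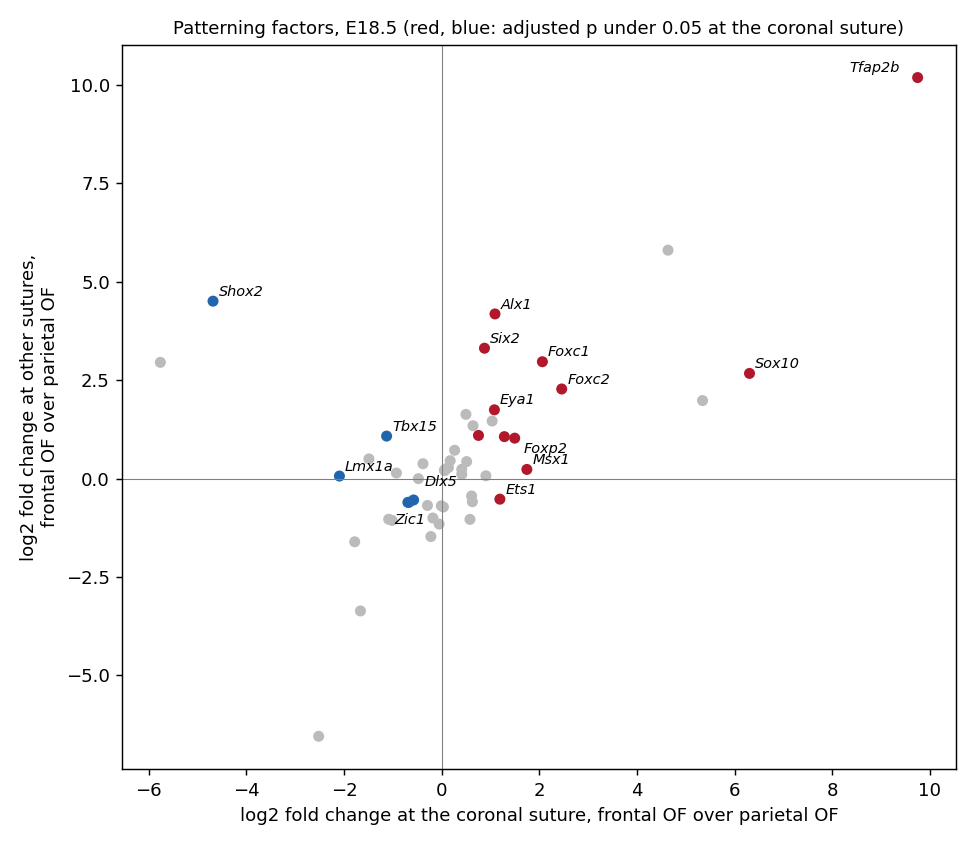
Log2 fold change (frontal over parietal OF) of the patterning factors at the coronal suture (x axis) and between the frontal suture and the sagittal and lambdoid sutures (y axis) at E18.5, with genes called higher in the frontal (red) or parietal (blue) OF at the coronal suture and described in the text named. Tfap2b lies far out on both axes (9.75 and 10.19), whereas Shox2 lies at -4.68 and 4.51. Values of genes at 0 in a whole group depend on the prior count.

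For embryos 1 and 3 a second library of each front was deposited, with 12826124 to 14441331 counts. These libraries come from the same embryos and add no replicate. Of the genes called in the first libraries, 536 of 630 and 323 of 354 had the same sign in both second pairs, and 7 and 2 had the opposite sign in both. In the second libraries Tfap2b was at 1.27 and 0.532 CPM in the frontal OFs of embryos 1 and 3 and at 0 in both parietal OFs, and Sim1 at 0 and 0.266 CPM in the frontal and at 7.05 and 20.7 CPM in the parietal OFs. Of the genes named above as at 0 in a whole front of the first libraries, Gm15520 had the opposite sign in embryo 3 (0.0665 CPM in the frontal and 0.404 CPM in the parietal OF), and reads were also seen for Mal in the parietal OF of embryo 3 (0.162 CPM, against 0.266 CPM in the frontal OF), for Fat2 in that of embryo 1 (0.0758 CPM, against 4.76 CPM) and for Pax1 in the frontal OF of embryo 1 (0.201 CPM, against 0.682 CPM in the parietal OF). In these pairs the lower bounds given above for Gm15520, Mal, Fat2 and Pax1 were not reached. Ntrk3 held 21.1 and 3.99 CPM in the frontal OFs of embryos 1 and 3 and 0 and 0.162 CPM in the parietal OFs. Tox2 held 7.11 and 0 CPM in the frontal OFs and was at 0 in both parietal OFs. The log2 difference of the second libraries was -0.02 in embryo 1 and 1.87 in embryo 3 for Six2, and -0.50 and 0.03 for Lmx1a. With the second libraries in place of the first, the count of called genes was 350, and 324 of the 984 kept their call. This swap also took in embryos with a second library of only 1 front. In those pairs a first library stood against a second one, so that front and kind of library cannot be told apart there.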

How the data were processed

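The authors deposited 1 table of raw counts per laser-captured library, with read pairs counted per gene. Per the labels and file headers, reads were trimmed with cutadapt, aligned to mm10 with STAR 2.5.3a and counted without strand over exons with featureCounts 1.6.4, so that reads of overlapping genes on opposite strands cannot be told apart. Besides the genes marked in the text, 10.5% to 18.8% of the exonic bases are shared with other genes for Adamts8, Egfl7, Rspo3, Tgfb3, Fgf2, Efna4, Gpi1, Pkm, Spp1 and Ostn. RNA was amplified without molecular identifiers, and counting intervals and floors therefore cover counting error only. Total counts were 20713756 to 29099736 in the 10 libraries of the fronts. Symbols were found for 55394 of 55487 gene IDs.

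The comparison of the fronts was fitted with edgeR 4.0.16 (R 4.3.3) on the 15 coronal libraries at E18.5, with TMM factors, robust quasi-likelihood tests, the embryo as a block (8 residual degrees of freedom) and genes at 1 CPM or more in over 10% of the libraries. The Benjamini-Hochberg adjustment ran over all genes tested, with a threshold of 0.05. The E16.5 comparison and the difference between the ages came from 1 fit of 30 coronal libraries, and the other sutures from a fit of 15 libraries without a block. The labels give the regions of an embryo the same number and litter. Deviations from the group means correlated at a median of 0.0659 (0.0297 to 0.293, 5 pairs) between the fronts of an embryo and of -0.012 between different embryos (20 pairs). With 3 counts as the floor over a front, the lower bounds rest on 0.0252 CPM in the frontal and 0.0260 CPM in the parietal OF. Ratios with 1 to 3 counts carry exact 95% Clopper-Pearson intervals.

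The members and gene lists were chosen with earlier results of these data known. Named genes were the 12 with the greatest fold change in each direction (adjusted p under 0.05, at least 1 CPM in the higher front, same sign in 5 of 5 embryos), every gene of a list that passed, and 31 genes named whatever their values. Alternatives were other scalings and filters, DESeq2 1.42.0, limma-voom 3.58.1, each replicate left out, no block and other sets of libraries. Tested on simulated counts for 18280 genes, the comparison of the fronts recovered 35% of 2-fold and 66% of 4-fold changes with 5 false calls. The age difference recovered 5% and 30% of such changes. Promoter sequences are those of RefSeq on GRCm38.p6. Libraries of complete sutures, single-cell libraries and a table of the authors' log2 ratios of front to mesenchyme were not used here, and a few genes are not reported here.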

Additional observations from a re-analysis of the deposited data

Results flagged for a closer look

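Of 172 sets of 5 libraries checked, 26 held a library far from the other 4 by Dixon's criterion, where chance gives about 1 in 20. In 6 of the 26 a single library had reads, which meets the criterion by construction, so that 20 bear on that rate. Of the 26, 9 were the frontal OF of embryo 2. The library of embryo 2 was the highest of its front for Alpl (733.5 CPM in the frontal and 926.6 CPM in the parietal OF), Sp7 (331 and 492 CPM), summed early osteoblast genes (82610 and 118600 CPM), summed markers of OF against SM (64640 and 94460 CPM) and summed chondrocyte markers (430.0 and 534 CPM). In the frontal OF it was also far above the others for Ibsp (4127 CPM), for which it was the highest parietal library as well (11141 CPM). In the frontal OF alone it was the highest for Axin2 (42.0 CPM) and Tnmd (3.84 CPM) and the lowest for summed macrophage markers (168 CPM, against 213 to 225 CPM).

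Outside the frontal OF of embryo 2, a frontal library stood alone for Tfap2b (6.22 CPM in embryo 1, against 1.81 to 2.51 CPM), Alx1 (61.3 CPM in embryo 4), Clec2g (1.08 CPM in embryo 1), Shox2 (0.808 CPM in embryo 4), BC030500 (0.0451 CPM in embryo 3) and summed Schwann cell and nerve markers (31.2 CPM in embryo 3, the lowest). A parietal library stood alone for summed retinoic acid genes (243 CPM in embryo 5) and as the 1 library with reads for Ntrk3 (0.0411 CPM, embryo 2), Tox2 (0.0377 CPM, embryo 5), Igsf11 (0.0457 CPM, embryo 3), Bmx (0.1235 CPM, embryo 2) and Tbx18 (0.165 CPM, embryo 2).

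The difference between the fronts changed from E16.5 to E18.5 by the interaction test for Cav1 (1.98), Aplnr (3.29), Epas1 (2.58), Fbn1 (1.22), Sparcl1 (1.67), Adgrf5 (2.56), Ptprb (2.39), Apbb2 (1.36), Pecam1 (2.66), Cdh5 (2.22), Osmr (2.71), Cd34 (1.48), Ccn3 (2.695) and P4ha1 (-1.15), all on the log2 scale. Aplnr was 54.6 ± 21.96 CPM at E16.5 and 4.88 ± 2.03 CPM at E18.5 in the parietal OF (SD, n = 5), beside 61.7 ± 30.8 and 50.4 ± 23.2 CPM in the frontal OF. Cd34 was 25.7 ± 8.08 and 106.7 ± 5.08 CPM in the frontal OF, beside 23.6 ± 6.26 and 35.9 ± 10.4 CPM in the parietal OF. Neither change within a front was tested. For Fbn1 and Ccn3 the E16.5 difference was itself called the other way (-0.85 and -1.97), and Ccn3 was not called at E18.5 (0.73, adjusted p = 0.0572 by edgeR's test). By the same test Fbn1 was called at E18.5 in the fit of that age alone (0.38, adjusted p = 0.0455). In the fit of both ages it was not (0.38, adjusted p = 0.313).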

How the results depend on the processing

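Of the 984 genes called between the fronts, 0 were called in the opposite direction under any alternative, and none of the 151 named genes that were called changed sign in the 16 to 20 alternatives in which it was tested. Of these genes 22 were called in all of theirs. Over genes and alternatives 2404 values kept the call and 592 lost it. The count was 1728 with DESeq2, 1530 without the SM libraries, 350 with second libraries in place of the first, 54 with embryos 1 and 2 only, and 475 to 1454 when 1 embryo was left out at a time. It was 475 without embryo 4, 499 without embryo 5, 500 without embryo 3, 561 without embryo 1 and 1454 without embryo 2. Scaling to total counts moved the median of all genes from 0.02 to 0.199 and the share of calls higher in the frontal OF from 64% to 85.6% (971 and 164 genes). That share was 52.8% without embryo 2, 50.7% without the SM libraries, 53.8% with embryos 3 to 5 only and 78% with second libraries, and the cause was not tested. Where only 1 front had a second library, it was paired with a first library of the other front. The age difference was called for 28 genes with no filter on low counts, 228 with DESeq2, 25 with second counts added and 0 to 16 without 1 replicate number. At the other sutures the count was 3389 against the lambdoid parietal OF only, 5503 to 7230 without 1 replicate number and 6248 to 8396 otherwise.

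Without the replicate block 739 genes were called between the fronts and 4 for the age difference. Among the named genes whose call was lost without the block, beside those given above, were Col5a2 (adjusted p = 0.116), Cspg4 (0.0973), Dll4 (0.149), Fbn1 (0.19), Gpi1 (0.194), Hk2 (0.102), Ndrg1 (0.303), Ostn (0.311), Pdpn (0.0519), Rarb (0.0715), Tgfb3 (0.0532), Timp1 (0.0625), Tmem119 (0.182) and Cldn11 (0.0682). Without embryo 2 the calls of Dkk3, Dll4, Fbn1 and Spry2 were lost. Genes that had not passed changed sign near 0. Mki67 was 0.0097 with total counts and Alx4 -0.073 with second libraries in place of the first. Twist1 ranged from -0.099 to 0.16 without 1 replicate and was -0.019 with all first libraries. Fgfr2 ranged from -0.077 to 0.054 without 1 replicate and was -0.0051 with no filter, -0.042 and -0.044 with all first libraries (with and without block), -0.015 with second counts added, -0.011 with second libraries in place of the first and -0.067 with embryos 3 to 5.

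With 5 embryos, the simulated 2-fold changes were mostly missed, and a gene that did not pass is not shown to be equal. Amplified RNA without molecular identifiers limits what low counts can show, and the fronts of 1 suture at E18.5 come from embryos under 2 starts of the litter label. The bulk tissue holds all cells within the cut, and cell numbers were not measured.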

Other observations

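Some gene groups were put together after values of these data were seen, so that their counts are descriptions with no test of the group. Genes of cholesterol synthesis were higher in the parietal OF for 11 of 24 (45.8%, against 1.85% of all genes) and in the frontal OF for 0, with a median log2 fold change of -0.67, and every parietal library lay above every frontal one for 12 genes (1.66% of all genes did so). Hmgcs1, an early enzyme of the pathway, was 61.8 ± 6.96 CPM in the frontal and 122.0 ± 5.82 CPM in the parietal OF (SD, n = 5), and Fdps, the farnesyl diphosphate synthase gene, 5.88 ± 1.49 and 18.7 ± 4.00 CPM. The count for this group was 11 without the replicate block, 15 without embryo 2, 10 without embryo 1, 7 without embryo 3 and 6 without embryo 4 or 5. At the other sutures 21 of 24 were higher in the parietal OFs (median -1.27), where 19.3% of all genes were, and at E16.5 0 of 24 were called by edgeR (1 and 1 at an unadjusted p under 0.05, median -0.20).

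Enzymes that modify, fold or cross-link collagen were higher in the parietal OF for 12 of 28 (42.9%, against 1.85% of all genes) and in the frontal OF for 1 (3.57%, against 3.3%). P4ha1, a prolyl hydroxylase subunit, was 242.9 ± 74.7 CPM in the frontal and 524 ± 132 CPM in the parietal OF, with no overlap. The collagen chaperone gene Serpinh1 was 645 ± 312 and 997 ± 352 CPM and the cross-linking enzyme gene Lox 904 ± 171 and 1466 ± 278 CPM, with groups that overlapped. P4ha3 was the gene higher in the frontal OF (0.38 ± 0.11), a call that was lost without the block and without any one embryo. On the parietal side the count was 8 without the block, 16 without embryo 2 and 8 to 9 without any one of the others.

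Genes of arteries and veins were called mainly in the frontal OF. Of 12 arterial genes 8 were higher there (66.7%, against 3.3% of all genes) and 1, the netrin receptor gene Unc5b, in the parietal OF (8.33%, against 1.85%, -0.67 ± 0.19), a call that was lost without the block and without any one of embryos 1, 3, 4 and 5. Of 8 venous genes 4 were higher in the frontal OF (50%) and 4 did not pass, and 2 were higher without embryo 1, 4 or 5. The gap junction genes Gja5 and Gja4 were 26.1 ± 22.2 against 0.312 ± 0.352 CPM and 7.01 ± 2.76 against 0.674 ± 0.419 CPM, and the apelin receptor gene Aplnr 57.7 ± 26.7 against 5.55 ± 2.31 CPM. Nr2f2, a factor of venous identity, did not pass (1.03 ± 0.39, adjusted p = 0.17 by edgeR).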
